A study of Mus musculus with 16 samples.

Results

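The 38 genes described here are, by annotated span, among the longest genes detected in mouse epidermis. They were taken from a list of names and matched by Ensembl identifier to the rows of the deposited count table, where all 38 were found among 49585 rows. All 38 also passed the filter on low counts, which kept 17741 genes. In GENCODE M21 (GRCm38) the genes spanned from 227.49 kb for Tead1, the TEA domain factor that carries YAP and TAZ to DNA, to 2270.7 kb for Ptprd, a receptor tyrosine phosphatase. Their median span was 600.54 kb, against 20.97 kb over the tested genes, and 9 of them covered at least 1000 kb. These are spans of the annotated gene, and the unit transcribed in epidermis may be shorter. The longest annotated coding transcript covered 649.49 kb for Ptprd and 418.37 kb for Auts2, whose gene spans 1106 kb. The 38 genes lie on 19 different chromosomes. Nearly all of this length is intron, since exons made up a median of 2.53% of the span, from 0.0925% in Fhit to 7.92% in Tcf4.

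RNA sequencing measured these transcripts in heat-separated epidermis of SKH-1 mice, which are hairless and immunocompetent, at 8 to 12 weeks of age. The controls carried K5Cre, a recombinase driven by the keratin 5 promoter, which is active in basal keratinocytes. The knockouts, labelled C/EBPB -/-, lacked the leucine zipper factor C/EBPβ in the epidermis, and the labels do not give the alleles they carried. Each genotype was sampled without exposure and at 6 h after ultraviolet B (UVB) at 100 mJ/cm2, and each of these 4 groups holds 4 libraries. Which libraries came from separate animals is not stated, so the p-values reflect the spread among these libraries, which may be technical.

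UVB joins neighbouring pyrimidines in DNA, and RNA polymerase II stops where it meets such a lesion on the strand it reads. Transcription-coupled repair, which starts at the stopped polymerase, removes these lesions. The longer a gene, the more sites it offers for a lesion ahead of the polymerase, and the longer a polymerase takes to reach its end. The comparison addresses how the counts of very long genes, as a share of a library, changed after exposure, and whether this differed without C/EBPβ. Spliced and unspliced RNA were not told apart.

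The libraries held 33.0 to 53.3 M counts. Cebpb stood at 155 to 186 CPM (counts scaled to library size) in unexposed controls and 253 to 320 CPM in exposed controls (lowest and highest of 4), against 0.177 to 0.875 CPM and 0.609 to 3.03 CPM in the knockouts, so the labels and this gene did not conflict. Summed keratinocyte markers held 18261 to 58940 CPM. All 10 were tested, and the defining Krt5 and Krt14 were detected in every group. The 9 fibroblast markers summed to 0.487 to 12.0 CPM and the 5 endothelial markers to 1.03 to 4.76 CPM, with Lum, Dpt and Cdh5 at 0 CPM throughout at least 1 group. In whole epidermis, fewer cells of a type and less RNA per cell cannot be told apart, and CPM gives a gene's share of a library rather than an amount per cell.

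Some libraries stood apart for these genes. Exposed control library 2 was the lowest of its group for 28 of the 38 genes, and unexposed knockout library 4 was the highest of its group for 31. Unexposed control library 1 was likewise the lowest of its group for 28, and unexposed knockout library 3 for 22. The median log2 CPM of the 38 genes was 5.89, 6.21, 6.32 and 6.07 in unexposed controls 1 to 4, and 6.07, 6.21, 6.02 and 6.44 in unexposed knockouts. After UVB it was 5.49, 4.57, 5.43 and 5.39 in controls, and 4.91, 4.72, 4.75 and 4.69 in knockouts. Every exposed library thus lay below every unexposed one, and exposed control library 2 lay below all 4 exposed knockouts. In that library mitochondrial transcripts took 5.24% of counts, against 8.57% to 9.65% in the other exposed controls and 5.44% to 5.99% in the exposed knockouts. Its keratinocyte marker sum was the highest of all, at 58940 CPM. So was its fibroblast marker sum, at 12.0 CPM against 0.487 to 1.86 CPM in the other exposed controls. Unexposed knockout library 4 had the highest mitochondrial share, 10.2%, and the lowest keratinocyte sum, 18261 CPM. A single gene, Gm42418, took 7.52% of its counts, against 1.57% to 1.76% in the other unexposed knockouts. Gm42418 also took 7.93% in unexposed control library 2 and 6.64% in exposed control library 4. The part of these differences in the results was not tested. Counts that rest on exposed control library 2 or unexposed knockout library 4 are given with and without it.

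**Figure D1:**
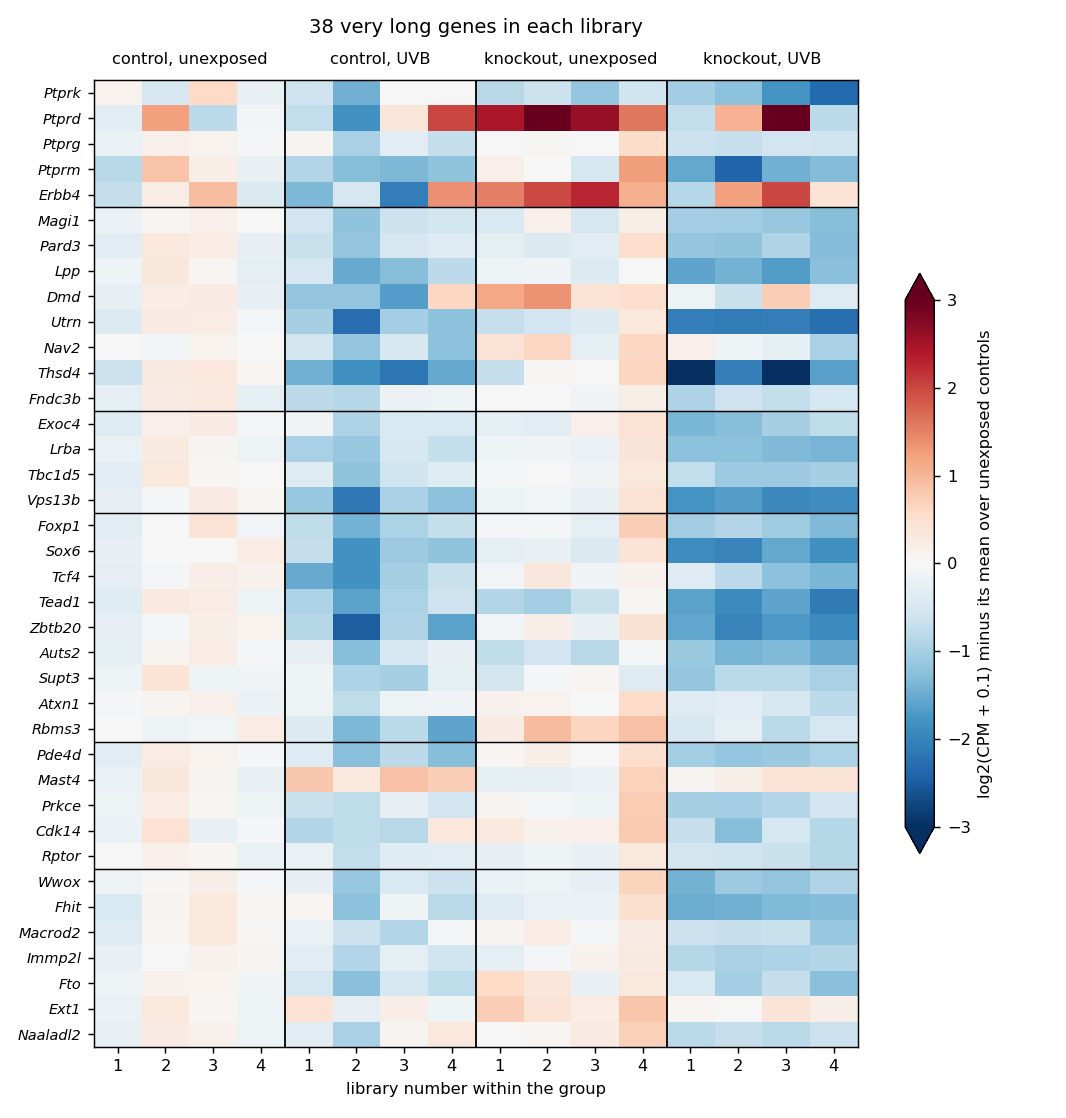
Transcript levels of the 38 very long genes (vertical axis, grouped by role) in each of the 16 libraries (horizontal axis, 4 per group). Colour is log2(CPM + 0.1) minus its mean over the unexposed controls, limited to 3 in either direction. Blue fills most of both UVB blocks, exposed control library 2 is the bluest of its group, and Mast4 is red in the exposed controls.

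In controls, 24 of the 38 genes fell after UVB, 1 rose and 13 did not pass the test (edgeR quasi-likelihood test, Benjamini-Hochberg adjusted over all 17741 genes, threshold 0.05). Over all tested genes 18% fell and 17.7% rose in this comparison. The median log2 fold change (exposed minus unexposed) of the 38 was -0.59, where that of all tested genes was -0.02, and 35 of the 38 estimates were below 0. For 22 genes every exposed library lay below every unexposed one, which held for 17.5% of all tested genes. In knockouts, 32 of the 38 fell, none rose and 6 did not pass in edgeR, and DESeq2 called 34 lower and none higher, with 35 at an unadjusted edgeR p under 0.05. This compares with 14.1% and 18.1% of all tested genes that fell and rose in edgeR. Of the 17741 tested genes, DESeq2 called 3032 lower and 3185 higher, and 7067 had an unadjusted edgeR p under 0.05. The median log2 fold change of the 38 was -1.05, against 0.01 over all tested genes. For 31 of the 38 the groups did not overlap, against 16.1% of all tested genes. The 38 genes together took 0.268% to 0.328% of counts in unexposed controls and 0.125% to 0.202% in exposed controls. In knockouts the same share was 0.293% to 0.366% unexposed and 0.145% to 0.178% exposed.

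Markers of other cell types moved in the same comparisons. The 5 Schwann cell markers, most of whose counts were Mbp, summed to 95.9 to 132 CPM in unexposed and 32.3 to 72.4 CPM in exposed controls, and to 80.0 to 98.2 CPM and 34.8 to 51.4 CPM in knockouts, with 1 of 4 tested that fell in each genotype. The 10 hair follicle markers summed to 358 to 1143 CPM unexposed and 579.7 to 2550 CPM exposed in controls (0 rose), and to 219 to 407 CPM and 183 to 2032 CPM in knockouts (3 rose). The 5 T cell markers summed to 51.5 to 66.2 CPM and 35.3 to 52.0 CPM in controls (1 fell), and to 20.6 to 53.0 CPM and 32.4 to 76.3 CPM in knockouts (2 rose). Melanocyte markers summed to 13.3 to 42.6 CPM and 5.39 to 59.1 CPM in controls, and to 6.41 to 16.2 CPM and 9.19 to 29.3 CPM in knockouts, and 1 of 6 rose in each genotype. Of the 6 Langerhans cell markers 1 rose in each genotype. The part of these markers in the changes of the long genes was not tested.

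These comparisons share no library. All 24 genes that fell in controls also fell in knockouts, which is 100% of the controls' list and 75% of the knockouts' list. Of all tested genes, 1992 fell in both genotypes, or 62.3% of the 3197 that fell in controls and 79.6% of the 2503 that fell in knockouts. Passing in knockouts and not in controls were Ptprg, Exoc4, Supt3, Atxn1, Cdk14, Fhit, Macrod2 and Naaladl2. Ptprk, Ptprd, Erbb4, Dmd and Ext1 passed in neither genotype, and Mast4 rose in controls.

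**Figure D2:**
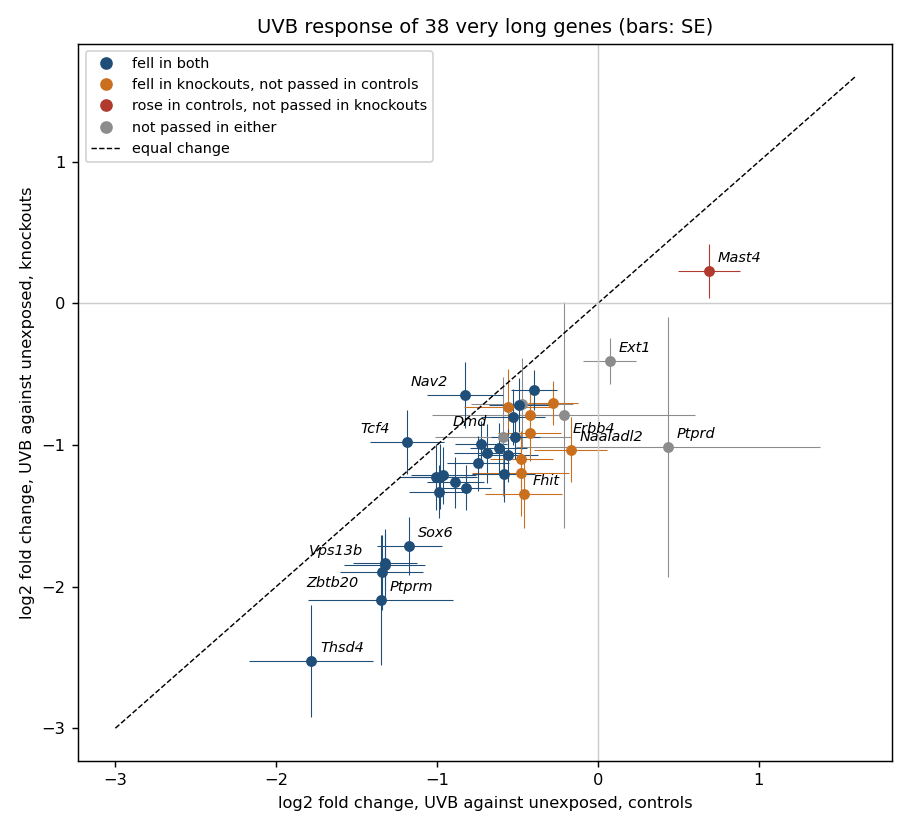
Log2 fold change after UVB in controls (horizontal axis) and in knockouts (vertical axis) for the 38 very long genes, with bars for the SE. Most points lie below 0 on both axes and below the dashed line of equal change, Thsd4 lies lowest on both, and Mast4 lies above 0 on both.

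Trafficking genes gave the smallest p-value of the list. Vps13b (ENSMUSG00000037646, 15:35371160-35931229, plus strand) encodes a lipid transfer protein of the Golgi. It stood at 67.7, 77.3, 95.1 and 84.0 CPM in unexposed controls and at 36.3, 18.1, 41.1 and 34.1 CPM in exposed controls. In knockouts it stood at 72.0, 76.6, 69.3 and 109 CPM unexposed and at 23.2, 25.3, 21.1 and 22.2 CPM exposed. Every exposed library lay below every unexposed one in both genotypes. The log2 fold change was -1.32 (SE 0.20, edgeR adjusted p = 2.56e-05) in controls and -1.83 (SE 0.20, adjusted p = 1.16e-06) in knockouts.

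Lrba encodes a BEACH domain protein that returns receptors such as CTLA4 to the cell surface. It was at 78.0, 108, 94.1 and 80.0 CPM in unexposed controls and at 45.3, 40.2, 63.9 and 54.0 CPM in exposed controls. Its knockout libraries held 81.2, 82.3, 78.5 and 116 CPM unexposed and 37.8, 37.9, 35.6 and 33.8 CPM exposed, with no overlap in either genotype. Lrba fell by 0.82 (SE 0.16) on the log2 scale in controls and by 1.30 (SE 0.16) in knockouts, with edgeR adjusted p = 0.000303 and 3.43e-06. Other annotated genes overlap 5.68% of its exonic bases, so a small part of its count is uncertain. Tbc1d5, an activator of Rab7 GTP hydrolysis, fell in both genotypes, by 0.62 and 1.02 on the log2 scale. Exoc4, a subunit of the exocyst, passed in knockouts at -1.10, and its estimate in controls was -0.48 (adjusted p = 0.0608).

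Among the 9 regulators of transcription and RNA, 7 fell in controls and all 9 in knockouts. Sox6 encodes an SRY-related HMG box factor and spans 567.92 kb on chromosome 7 (115470872-116038796, minus strand). Its levels were 107, 127, 128 and 147 CPM in unexposed controls and 76.4, 35.7, 59.1 and 54.5 CPM in exposed controls. Its knockout levels were 105, 107, 93.3 and 167 CPM unexposed and 34.1, 31.2, 43.6 and 35.1 CPM exposed. The groups did not overlap in either genotype, and the log2 fold changes were -1.17 (SE 0.20, adjusted p = 0.000103) and -1.71 (SE 0.20, adjusted p = 2.62e-06).

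Zbtb20, a zinc finger repressor, was at 79.7, 93.5, 108 and 102 CPM in unexposed controls and at 52.3, 17.0, 50.5 and 31.3 CPM in exposed controls. In knockouts the values were 90.4, 109, 81.4 and 131 CPM unexposed and 32.5, 23.7, 29.0 and 25.3 CPM exposed. Its exposed libraries were lower throughout, at log2 fold changes of -1.34 in controls and -1.90 in knockouts (adjusted p = 0.000487 and 2.56e-05). Tcf4, an E protein of the basic helix-loop-helix class, was at 65.4, 74.8, 89.7 and 85.6 CPM in unexposed controls and at 27.4, 22.2, 39.4 and 49.5 CPM in exposed controls. Its knockout libraries held 74.3, 99.2, 73.3 and 86.0 CPM unexposed and 59.8, 45.6, 33.1 and 30.3 CPM exposed. Tcf4 and Nav2 were the genes of the list with a smaller estimate of the fall in knockouts than in controls, and for Tcf4 the log2 fold changes were -0.98 and -1.19. The forkhead repressor Foxp1 fell by 0.96 and 1.22 on the log2 scale in controls and knockouts, Tead1 by 1.01 and 1.23, and the RNA-binding protein gene Rbms3 by 0.98 and 1.22. Atxn1, whose product binds the repressor Capicua, and Supt3, which encodes a subunit of the SAGA coactivator, passed in knockouts only, at -0.70 and -0.73. Their difference in response between genotypes did not pass (edgeR adjusted p = 0.873 and 0.978).

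Genes of junctions, polarity, the cytoskeleton and matrix included the largest changes. Of 8, 7 fell in each genotype, and dystrophin (Dmd) passed in neither. Utrn encodes utrophin, the relative of dystrophin found in most tissues, and links actin to the membrane. It was at 83.0, 132, 129 and 108 CPM in unexposed controls and at 55.7, 22.6, 54.8 and 47.1 CPM in exposed controls. Its knockout values were 68.7, 74.9, 83.0 and 138 CPM unexposed and 26.2, 25.8, 26.2 and 22.9 CPM exposed. No exposed library of Utrn reached an unexposed one, and the log2 fold changes were -1.33 (SE 0.25, adjusted p = 0.000389) and -1.85 (SE 0.25, adjusted p = 2.25e-05).

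Lpp, a LIM domain protein of focal adhesions and cell junctions, was at 78.9, 109, 90.2 and 70.8 CPM in unexposed controls and at 60.7, 29.9, 35.6 and 49.6 CPM in exposed controls. Its knockout values were 77.5, 79.8, 64.8 and 87.3 CPM unexposed and 28.6, 32.0, 26.7 and 35.8 CPM exposed, again without overlap. The log2 fold changes of Lpp were -0.99 (adjusted p = 0.000289) and -1.33 (adjusted p = 1.77e-05). Thsd4, which acts in the assembly of fibrillin microfibrils, had the lowest log2 fold change of the list in both genotypes. Its mean was 16.2 ± 4.29 CPM in unexposed and 4.69 ± 1.03 CPM in exposed controls (SD, n = 4), a level 29% of the unexposed one in the fit (-1.78, SE 0.39, adjusted p = 0.00121). In knockouts it was 16.3 ± 6.17 and 2.83 ± 1.84 CPM, at 17.4% (-2.53, SE 0.40, adjusted p = 6.89e-05). The junction scaffold Magi1 and the polarity protein gene Pard3 fell by 0.73 and 0.69 on the log2 scale in controls and by 1.00 and 1.06 in knockouts. Nav2, a microtubule-binding protein gene, fell by 0.83 in controls and 0.65 in knockouts, and Fndc3b by 0.49 and 0.72.

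Dmd spans 2257.3 kb, nearly as far as the longest gene of the list, yet its libraries overlapped. Unexposed controls held 4.32 to 6.10 CPM and exposed controls 1.55 to 7.89 CPM, where the value of 7.89 CPM was that of exposed control library 4 and the other 3 were at or below 2.20 CPM. Its log2 fold changes were -0.59 (SE 0.42, adjusted p = 0.306) and -0.94 (SE 0.42, adjusted p = 0.0963).

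Signalling genes held the exception. Mast4, a microtubule-associated serine/threonine kinase gene of 602.01 kb, rose in controls from 107 ± 19.7 to 173 ± 28.1 CPM (SD, n = 4), a log2 fold change of 0.69 (SE 0.19, adjusted p = 0.00739). Exposed control library 2, at 132 CPM, overlapped the highest unexposed control at 133 CPM. In knockouts the change was 0.23 (SE 0.19, adjusted p = 0.417), with unexposed library 4 at 169.8 CPM above all exposed knockouts. Without that library Mast4 passed in knockouts as well, with a log2 fold change of 0.47. The difference between the responses was -0.46 (SE 0.27, adjusted p = 0.893).

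Pde4d, a cyclic AMP phosphodiesterase gene spread over 1503.5 kb, was at 62.5, 90.9, 83.5 and 75.3 CPM in unexposed controls and at 59.5, 32.6, 44.8 and 32.0 CPM in exposed controls. Its knockout values were 80.9, 87.5, 77.3 and 110.3 CPM unexposed and 37.8, 34.6, 35.9 and 39.9 CPM exposed. Exposed libraries were lower throughout, with log2 fold changes of -0.89 (adjusted p = 0.00047) and -1.26 (adjusted p = 1.61e-05). Prkce, a protein kinase C gene, fell by 0.56 and 1.07 on the log2 scale in controls and knockouts, and Rptor, the raptor subunit of mTOR complex 1, by 0.40 and 0.61. Cdk14, a cyclin-dependent kinase gene, passed in knockouts at -1.20, and its control estimate was -0.48 (adjusted p = 0.233).

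Of the 7 enzymes and genes of common fragile sites, 3 fell in controls and 6 in knockouts. Immp2l, a mitochondrial inner membrane peptidase gene of 931.5 kb with 1.83 kb of exons, was at 27.1, 32.1, 34.8 and 33.9 CPM in unexposed controls and at 25.4, 17.3, 25.8 and 21.1 CPM in exposed controls. In knockouts it was at 26.5, 31.2, 34.6 and 38.5 CPM unexposed and at 17.5, 16.3, 16.8 and 17.4 CPM exposed. Exposed libraries were lower throughout, and the log2 fold changes were -0.51 (SE 0.15, adjusted p = 0.0109) in controls and -0.94 (SE 0.15, adjusted p = 6.84e-05) in knockouts. The RNA demethylase gene Fto fell by 0.75 and 1.13 on the log2 scale in controls and knockouts, and Wwox, an oxidoreductase gene at a fragile site, by 0.59 and 1.21. Macrod2, which encodes an ADP-ribose hydrolase, and Naaladl2, a carboxypeptidase-like gene, passed in knockouts only, at -0.92 and -1.03. Ext1, a heparan sulfate polymerase gene and at 282.12 kb among the 4 shorter than 300 kb, did not pass in either genotype. Its log2 fold change was 0.07 (SE 0.16, adjusted p = 0.779) in controls and -0.41 (SE 0.16, adjusted p = 0.0649) in knockouts.

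Of the 5 genes of receptor phosphatases and the receptor kinase Erbb4, 1 fell in controls and 2 in knockouts, where 18% and 14.1% of all tested genes fell. Ptprm, a phosphatase that also binds its own kind on neighbouring cells, fell in both, at -1.35 (SE 0.45, adjusted p = 0.023) on the log2 scale in controls and -2.09 (SE 0.46, adjusted p = 0.00122) in knockouts. It was at 1.82 to 6.12 CPM in unexposed controls and 1.25 to 1.77 CPM in exposed ones, which did not overlap. Ptprg fell in knockouts, by 0.79. Ptprd and Erbb4, the receptor kinase for neuregulins, had the fewest counts of the list, at 0.957 ± 0.725 and 0.643 ± 0.394 CPM in unexposed controls (SD, n = 4). Ptprd ran from 0.160 to 3.58 CPM in exposed controls. The SE of the log2 fold changes after UVB of Ptprd and Erbb4 was 0.94 and 0.82 in controls. A change of the size of the list's median was therefore not detectable for them with this spread among libraries.

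**Figure D3:**
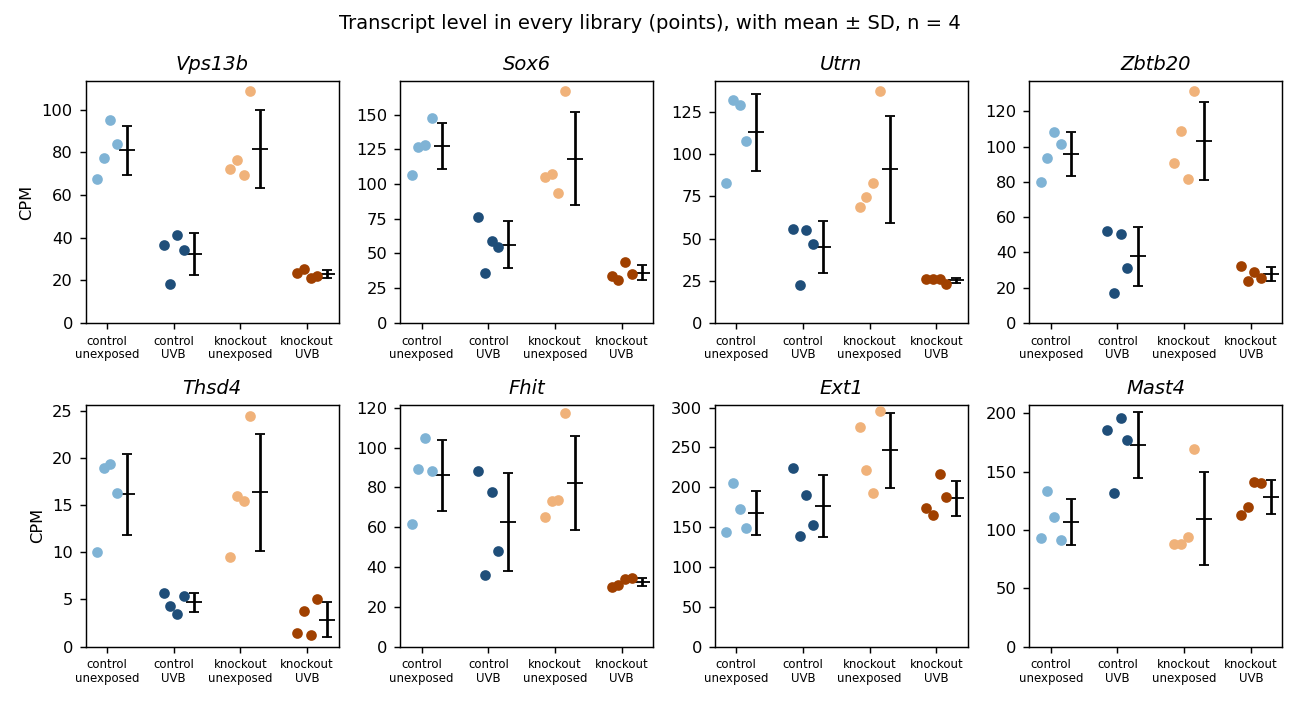
CPM of 8 very long genes (vertical axes from 0) in the 4 groups (horizontal axes), with a point for each library and the mean ± SD of 4 libraries. Vps13b, Sox6, Utrn and Zbtb20 separate exposed from unexposed libraries in both genotypes, while Ext1 overlaps and Mast4 is higher in exposed controls. Thsd4, Fhit, Ext1 and Mast4 were picked for the plot after their values were seen.

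Some of the control calls were close to the threshold. With 1 library left out at a time, the count of genes that fell in controls ran from 19 (without unexposed control library 2) to 26 (without exposed control library 1 or 4), and was 20 without exposed control library 2. Ptprm, Fndc3b, Auts2, Prkce, Rptor and Wwox lost their call in controls in at least 1 such fit, with log2 fold changes still below 0. Ptprm lost it without unexposed control library 2, at an edgeR adjusted p = 0.127. In knockouts the count ran from 30 to 33, and Nav2 and Supt3 lost their call in 6 of 8 fits each.

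Before exposure, no gene of the list passed between knockouts and controls, where 0.964% of all tested genes rose and 1.14% fell in knockouts. Of the 38, 8 had an unadjusted p under 0.05 in edgeR, while DESeq2 called 2 (Ext1 and Ptprd, both higher). Of the 17741 tested genes, 2208 had an unadjusted edgeR p under 0.05, and DESeq2 called 385 higher and 357 lower. The median log2 difference (knockout minus control) of the 38 was 0.05. The median turned to -0.0842 without unexposed knockout library 4, to -0.0179 without unexposed control library 1, and to -0.0985 without unexposed knockout library 4 and exposed control library 2. Without unexposed knockout library 4, 1 gene was lower in knockouts, and without both libraries 3 were. Ext1 had the smallest p and was at 275, 222, 193 and 296 CPM in knockouts against 144, 206, 172 and 149 CPM in controls, a difference of 0.56 (SE 0.16, edgeR adjusted p = 0.09). Rbms3 stood at 15.2, 24.8, 20.3 and 23.6 CPM in knockouts against 12.8, 11.6, 12.1 and 15.1 CPM in controls, which did not overlap. Its adjusted p was 0.137. Ptprk, a phosphatase of cell contacts, was lower in all knockouts (24.02, 27.5, 19.2 and 28.3 CPM) than in all controls (46.7, 30.5, 65.9 and 37.1 CPM), at -0.86 with an edgeR adjusted p = 0.223. Auts2, a component of a Polycomb complex, was at 38.3, 44.0, 36.7 and 62.7 CPM in knockouts and 54.4, 69.8, 76.7 and 62.8 CPM in controls, at -0.54 (edgeR adjusted p = 0.21).

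After UVB, 2 genes of the list were lower in knockouts than in controls and passed, Auts2 and Fhit, against 2.32% of all tested genes that fell and 2.36% that rose. Auts2 was at 30.1, 25.01, 25.9 and 23.0 CPM in exposed knockouts and at 55.4, 27.1, 45.8 and 54.9 CPM in exposed controls. The difference was -0.82 (SE 0.20, edgeR adjusted p = 0.0225). Fhit, a dinucleotide hydrolase gene at a common fragile site, covers 1611.9 kb with 1.49 kb of exons, 6.84% of them shared with other genes. It was at 30.1, 31.0, 33.9 and 34.4 CPM in exposed knockouts and at 88.3, 35.7, 77.7 and 48.1 CPM in exposed controls. These groups did not overlap, and the difference was -0.95 (SE 0.24, edgeR adjusted p = 0.0292). Tead1 missed the threshold at -0.81 (61.6, 49.8, 62.6 and 42.9 CPM against 99.0, 61.7, 97.7 and 123 CPM, edgeR adjusted p = 0.0508). Ptprk, at 21.1, 18.5, 12.5 and 8.53 CPM against 28.0, 15.9, 42.6 and 43.3 CPM, had a difference of -1.10 (edgeR adjusted p = 0.0607).

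These counts rest on exposed control library 2. Without it, 13 of the 38 genes passed as lower in exposed knockouts, and 18 passed with unexposed knockout library 4 left out as well. The share of all tested genes that passed in these refits is not given here. Whether the increase in calls is particular to the list was therefore not tested. DESeq2 called 8 of the 38 lower with all libraries, and 791 of the 17741 tested genes. Without any 1 of the other exposed libraries, 0 or 1 of the 38 passed as lower, and 1 passed as higher without exposed control library 4. Auts2 lost its call in 5 of the 8 fits that left out 1 exposed library, and Fhit in 6. The median log2 difference of the 38 was -0.40, against 0.04 over all tested genes, and 31 estimates were below 0. Langerhans cell markers moved with genotype in the exposed groups, as 4 of 6 were higher in knockouts. Their summed level was 664 to 852 CPM in exposed knockouts and 333 to 507 CPM in exposed controls, against 214 to 464 CPM and 394 to 732 CPM in unexposed controls and knockouts. Of 10 keratinocyte markers, 3 were higher in exposed knockouts and 2 in unexposed ones. Krt5 averaged 351 CPM in exposed controls and 774 CPM in exposed knockouts, and Krt14 1728 and 4172 CPM, while the summed keratinocyte level was 21414 to 58940 CPM and 29807 to 46567 CPM. The exposed knockouts also had 19201 to 21548 genes detected at equal depth, against 16982 to 19315 for the exposed controls. The part of these differences between genotypes was not tested.

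The difference between the UVB responses was tested directly. No gene of the list passed (0% of all tested genes rose or fell in edgeR), with 5 of the 38 at an unadjusted p under 0.05 and none in DESeq2. Of the 17741 tested genes, 1043 had an unadjusted edgeR p under 0.05, and DESeq2 called 6 higher and 25 lower. The estimate was below 0, a lower log2 fold change in knockouts, for 36 of the 38 genes and for 45.4% of all tested genes. Its median was -0.43 over the 38 and 0.05 over all tested genes. Naaladl2 (-0.86, SE 0.32, edgeR adjusted p = 0.773), Fhit (-0.88, SE 0.34, adjusted p = 0.787) and Exoc4 (-0.63, SE 0.27, adjusted p = 0.797) had the smallest p-values. Across the 38 genes the SE of this difference ran from 0.20 for Rptor to 1.31 for Ptprd. Among the other tested genes of at least 200 kb, 73.2% of estimates were below 0, with a median of -0.32. Before exposure these other long genes had a median log2 difference (knockout minus control) of 0.23. For those with a mean of at least 5 CPM, the median before exposure was -0.03. At that level the median difference between responses was -0.21, against -0.40 for the listed genes. The part of the level before exposure in these differences was not tested.

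Other long genes were set beside the list, since it holds 38 of the 1026 tested genes that span at least 200 kb. Of the remaining 988, 300 (30.4%) fell in controls and 350 (35.4%) in knockouts, at median log2 fold changes of -0.45 and -0.80. Many of them are scarce in epidermis. Among the 440 with a mean of at least 5 CPM, 262 (59.5%) fell in controls and 314 (71.4%) in knockouts, with medians of -0.68 and -0.88. At the same level, 35 of the 38 listed genes remained, of which 23 (65.7%) and 31 (88.6%) fell, with medians of -0.59 and -1.06. Of the 9544 genes under 200 kb at this level, 24.1% fell in controls and 19.4% in knockouts.

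Across all tested genes the response differed by span. The median log2 fold change in controls was 0.30 under 10 kb (5493 genes), 0.05 from 10 to 30 kb, -0.22 from 30 to 100 kb, -0.48 from 100 to 200 kb, -0.53 from 200 to 400 kb and -0.38 from 400 kb (364 genes). In knockouts the same classes gave 0.35, 0.18, -0.20, -0.61, -0.77 and -0.92. The share of genes that fell in controls was 7.39%, 13.7%, 26.4%, 37.6%, 33.5% and 28.0% from the shortest class to the longest, so it was highest from 100 to 200 kb. In knockouts it was 3.53%, 8.34%, 20.3%, 39.0%, 40.03% and 32.1%, highest from 200 to 400 kb. With a mean of at least 5 CPM, the medians from 400 kb (142 genes) were -0.73 in controls and -1.09 in knockouts. At this level the share that fell was highest from 400 kb in both genotypes. In controls it was 56.4% from 100 to 200 kb, 58.9% from 200 to 400 kb and 62.7% from 400 kb. In knockouts these shares were 60.0%, 71.8% and 74.6%.

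**Figure D4:**
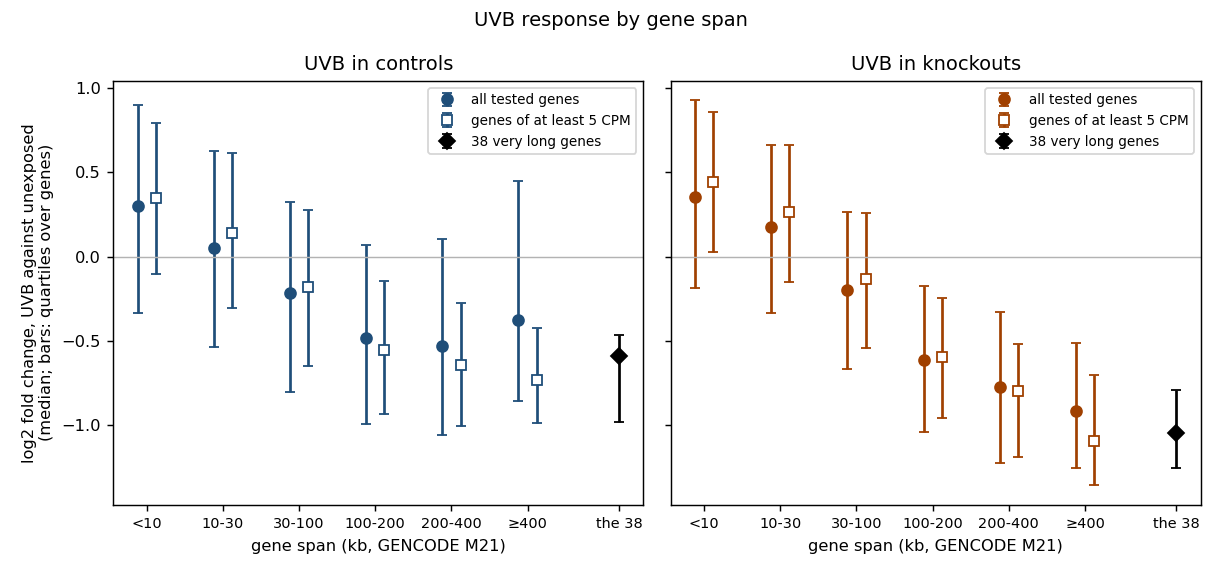
Median log2 fold change after UVB (vertical axis) by gene span (horizontal axis), in controls and in knockouts, for all tested genes (filled), genes of at least 5 CPM (open) and the 38 very long genes (diamonds). Bars are quartiles over genes. Medians are above 0 under 10 kb and below 0 from 30 kb, and the diamonds lie at -0.59 and -1.05.

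Per library, a gap was taken between other long genes and genes under 200 kb. It was the median log2 CPM of the 988, minus the median of the shorter genes. After adjustment the gap did not pass in any of the 4 comparisons, which groups of this size could hardly do. It changed by -0.30 after UVB in controls (exact permutation test over libraries, two-sided, p = 0.143, adjusted 0.19) and by -0.86 in knockouts (exact p = 0.0571, adjusted 0.19), and 3 of 4 exposed libraries lay below all unexposed ones in each. The smallest p that 4 against 4 libraries allow is 0.0286. That value was reached in both genotypes with genes of at least 5 CPM, where the gap changed by -0.71 in controls and -0.97 in knockouts and all 4 exposed libraries lay lower. Adjusted over the 4 comparisons it was 0.0571 for each. Complete separation of exposed from unexposed libraries in both genotypes thus left the adjusted p above the threshold. Not passing after adjustment therefore cannot decide whether the gap changed after UVB. With genes from 400 kb the change in controls was 0.12, opposite in sign (exact p = 0.771), and that in knockouts was -1.05 (exact p = 0.114).

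Within the list, span and response showed little relation. Spearman's rho between span and log2 fold change was 0.18 in controls and -0.14 in knockouts over the 38 genes, a description across genes that share the same libraries. The log2 fold changes in controls and knockouts had Pearson's r = 0.83 and rho = 0.73 over the 38 genes. Exonic length and mean level gave rho of -0.26 and 0.01 in controls.

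**Figure D5:**
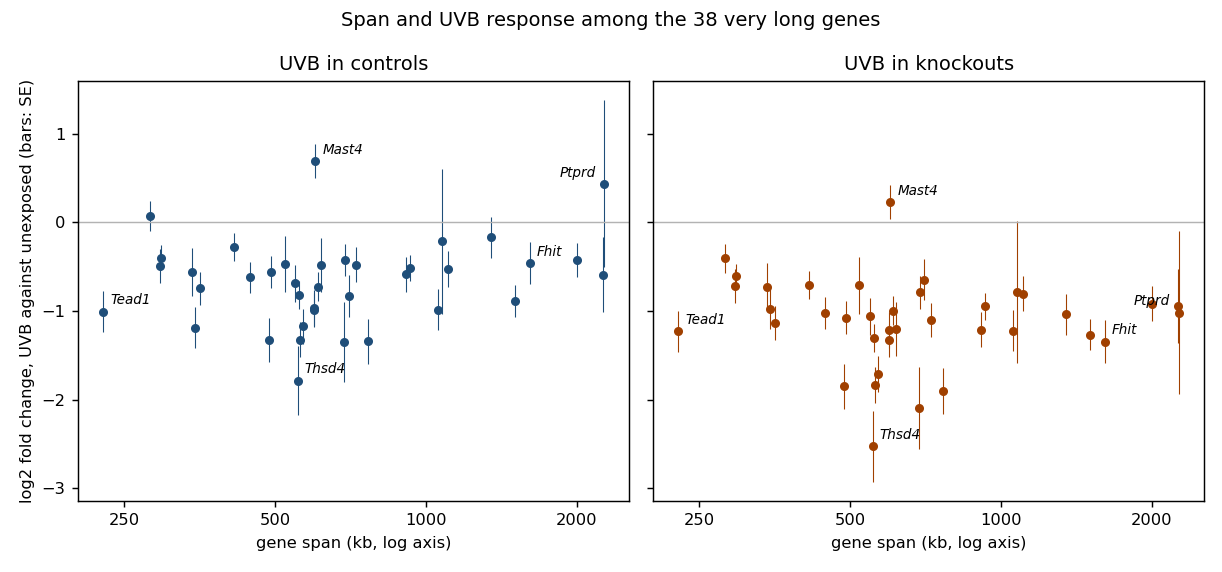
Gene span (horizontal axis, log scale, kb) and log2 fold change after UVB (vertical axis, bars for the SE) for the 38 very long genes, in controls and in knockouts. Thsd4, of 555.12 kb, lies lowest in both, and the points show no trend with span.

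The machinery that acts at stopped or paused polymerases was measured beside these genes. Of 19 tested genes of transcription-coupled repair, 10 rose and 3 fell in controls, and 11 rose and none fell in knockouts. Of all tested genes, 17.7% rose and 18% fell in controls, and 18.1% rose and 14.1% fell in knockouts. The median log2 fold changes of the 19 were 0.41 and 0.46, with 13 at an unadjusted edgeR p under 0.05 in each. Polr2a, the largest subunit of RNA polymerase II, rose by 2.47 (SE 0.15, edgeR adjusted p = 5.46e-10) in controls and 2.15 (SE 0.15, adjusted p = 6.72e-09) in knockouts. Xab2, a splicing factor that binds XPA, rose by 0.97 and 0.74, and Ercc2, the helicase of TFIIH, by 0.69 and 0.71. Of 26 genes that control elongation, 15 rose in controls and 14 in knockouts, and none fell in either by edgeR or DESeq2 (15 and 19 had an unadjusted edgeR p under 0.05). Hexim1, which holds the elongation kinase P-TEFb inactive, rose by 2.43 (SE 0.22) and 2.13 (SE 0.22), and Ell2, an elongation factor, by 1.11 and 0.89. None of the 45 genes passed between genotypes before or after UVB, or for the difference of responses, in edgeR or DESeq2. At an unadjusted edgeR p under 0.05 there were 4 of the 19 and 6 of the 26 for knockout against control after UVB, and 2 of each for the difference. Of all 17741 tested genes, 3595 and 1043 were under it in these comparisons. For UVB, 7734 of all tested genes were under it in controls and 7067 in knockouts. Polr2a spans 24.6 kb and Hexim1 3.49 kb, so both are short beside the 38.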

How the data were processed

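Per the labels' protocols, total RNA of heat-separated epidermis was made into libraries with the NEBNext Ultra Directional kit. FastQC, STAR, HTSeq and DESeq2 appear in the submitters' processing notes. Not given in the sources used here are their versions, the genome build, the annotation and the strand setting of counting. The values deposited by the authors are unnormalized counts, 1 column per library and 1 row per Ensembl gene, and overlapping or antisense genes therefore have uncertain counts. Even values made up 68.8% of counts between 2 and 101, against 50% of the integers in that range. The sources give no reason, and precision at low counts may be lower than the counts imply.

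Members were matched by Ensembl identifier. Spans and exons came from GENCODE M21 (GRCm38), which may not be the authors' annotation: 259 of 49585 identifiers were absent from it, and 40 tested genes had no span. The members and gene lists were chosen with earlier results of these data known. In edgeR 4.0.16 (R 4.3.3), filterByExpr kept 17741 genes and TMM factors scaled the libraries. The robust quasi-likelihood fit had a mean for each of the 4 groups and used all 16 libraries. Two-sided F test p-values were Benjamini-Hochberg adjusted across all 17741 genes, with 0.05 as the threshold. The SE is the log2 fold change over the square root of F. CPM uses the TMM-scaled library size. The fit was tested on simulated counts, and the permutation test of the length gap only on fixed sets of made-up values.

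The comparisons were exposed against unexposed in each genotype, knockout against control in each condition, and the difference of responses. The length gap of each library used an exact permutation test over 70 arrangements. The alternatives were DESeq2 1.42.0, RLE and upper-quartile scaling, no filter on low counts, only the groups compared, each library left out, and other spans and levels for the length gap. Added after seeing the data were the fit without 2 libraries and the length classes at 5 CPM. All members could be named; values per library were for the 8 smallest p-values in each UVB comparison and 4 in each genotype comparison, and 4 genes per list. Values of Dmd, Thsd4, Mast4, Exoc4, Cdk14, Ptprm, Ptprd and Erbb4 beyond that rule were chosen after they were seen. Tables were made with Python 3.11.15, pandas 2.3.3 and scipy 1.17.1, and plots with matplotlib 3.10.9.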

Additional observations from a re-analysis of the deposited data

Results flagged for a closer look

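In groups of 4 libraries, single values were compared with the rest of their group by Dixon's ratio. Of 152 combinations of gene and group, 15 held a library far from the other 3, where about 1 in 20, or 7.6, is given by chance alone. Unexposed knockout library 4 was the high value for 8 genes: Ptprg at 96.8 CPM, Pard3 at 589 CPM, Lrba at 116 CPM, Tbc1d5 at 72.2 CPM, Mast4 at 169.8 CPM, Rptor at 107 CPM, Wwox at 231 CPM and Fhit at 117 CPM. Exposed control library 2 was the low value for Magi1, at 85.9 CPM, and Atxn1, at 111 CPM. Its median log2 CPM of the 38 genes, 4.57, also lay far below the rest of its group. Exposed control library 4 was the high value for Dmd, at 7.89 CPM, and Cdk14, at 7.47 CPM. Exposed knockout library 4 was the low value for Utrn, at 22.9 CPM, and Macrod2, at 8.62 CPM. Unexposed control library 2 was the high value for Supt3, at 8.83 CPM.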

How the results depend on the processing

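No paired analysis was possible because replicate numbers follow accession order. Each call of a gene in a comparison was set against each alternative. Of these pairs of call and alternative, 774 kept the call and 52 lost it, and none changed sign. Genes without a call in the main fit were not part of this tally, so calls gained under an alternative are not in it. In knockouts after UVB, 1 gene rose without exposed control library 2 and unexposed knockout library 4, and 0 to 1 with single libraries left out. Unexposed, knockout against control, DESeq2 called 2 genes higher, as did the fit of only those groups. Genes lower in that comparison numbered 0 to 1 with single libraries left out and 3 without both libraries. Its median ran from -0.0842 (without unexposed knockout library 4) to 0.14, and was -0.10 without both libraries. After UVB, genes lower in knockouts numbered 8 with DESeq2, 4 with RLE scaling and 1 with no filter. They numbered 18 without both libraries and 0 to 13 with single libraries left out, and 0 to 1 were higher. For fits that left out libraries, shares over all tested genes are not given here.

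The length gap after UVB changed by -0.56 in controls and -0.79 in knockouts with genes from 100 kb, and by -0.71 and -0.97 with genes of at least 5 CPM. With genes from 400 kb it changed by 0.12 in controls, opposite in sign (exact p = 0.771), and by -1.05 in knockouts (exact p = 0.114). At this span unexposed knockouts were higher than unexposed controls by 0.97 (exact permutation p = 0.0286, adjusted 0.114). The cause was not tested. Low counts and spread among libraries limit Ptprd, Erbb4 and Ptprm, each under 5 CPM on average.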
